A study of Mus musculus with 2 samples.

Results

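Plasmacytoid dendritic cells were chosen by their own UMI counts from sorted mouse hindlimb muscle cells, as barcodes with at least 3 UMIs (unique molecular identifiers, each standing for 1 captured RNA molecule) of Siglech and at least 1 UMI of Ccr9, Cox6a2, Klk1 and Cd209d together. This rule found 321 cells among 5302 kept cells, 169 of 2636 at day 28 and 152 of 2666 at day 0. The cells came from Fsp1-Cre: R26R-EYFP mice, in which the Fsp1 (S100a4) promoter drives Cre recombinase and YFP then marks a cell and its descendants for good, so that a YFP+ cell need not express S100a4 when it is sorted. Muscle was digested and YFP+CD11b- cells were sorted 28 days after hindlimb ischemia surgery, which cuts the blood supply of the leg, or from mice of the same genotype without surgery, called day 0. Each time point is 1 droplet library of the 10x system, and the number, age and sex of the mice behind it are not given in the sources used here. With 1 library a group no difference between day 28 and day 0 has a replicate check, the library and the surgery cannot be told apart, and every interval below is an exact 95% interval for counting error alone.

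Plasmacytoid dendritic cells are bone marrow derived dendritic cells that read viral nucleic acids in endosomes through Tlr7 and Tlr9 and answer, through Myd88 and Irf7, with large amounts of type I interferon. Tcf4 (E2-2) is the transcription factor that sets and holds their identity, with Irf8, Spib, Runx2, Bcl11a and Zeb2 beside it. They share part of their development with the lymphoid lineage, and in mice a part of them carries rearranged immunoglobulin gene segments.

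The 5 genes of the rule have roles on the cell surface, in secretion and in energy metabolism. Siglech (chr7:55768178-55778925, plus strand, mm10) is a sialic acid binding receptor used as a marker of mouse plasmacytoid dendritic cells. Ccr9 is a chemokine receptor for homing to the gut, Klk1 a secreted kallikrein protease, Cd209d a C-type lectin, and Cox6a2 the heart and skeletal muscle form of a cytochrome c oxidase subunit. Of the 5 genes, 4 had a start site window in the RefSeq table (GRCm38.p6), and the 250 bases before the start are shown for the 3 whose RNA was most confined to these cells by the share values that follow. Capitals mark CANCTG on either strand (CAGNTG as read here), the part of the E-box motif that E proteins such as Tcf4 bind.
Siglech, chr7:55767934-55768183, plus strand: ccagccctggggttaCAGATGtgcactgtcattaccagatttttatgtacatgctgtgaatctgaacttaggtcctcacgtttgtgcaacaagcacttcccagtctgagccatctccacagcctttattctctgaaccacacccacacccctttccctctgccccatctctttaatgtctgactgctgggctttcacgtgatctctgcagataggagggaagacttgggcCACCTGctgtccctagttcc
Ccr9, chr9:123766961-123767210, plus strand: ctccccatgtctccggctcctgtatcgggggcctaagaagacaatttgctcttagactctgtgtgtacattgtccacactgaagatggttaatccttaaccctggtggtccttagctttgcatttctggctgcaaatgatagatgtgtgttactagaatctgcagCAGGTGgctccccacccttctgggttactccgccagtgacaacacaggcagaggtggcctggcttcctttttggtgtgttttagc
Klk1, chr7:44225110-44225359, plus strand: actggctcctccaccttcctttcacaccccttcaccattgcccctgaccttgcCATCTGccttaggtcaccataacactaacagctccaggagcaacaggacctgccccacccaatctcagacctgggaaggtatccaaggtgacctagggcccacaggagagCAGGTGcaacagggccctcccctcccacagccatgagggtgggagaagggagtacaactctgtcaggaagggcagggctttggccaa
Siglech and Klk1 hold 2 matches each and Ccr9 holds 1. Of 32851 such windows over all genes, 44.8% hold at least 1 match. GAGGAA, the core read by Spi1 and Spib, occurs on either strand in 23.3% of all windows, and in 0 of these 3. The window of Cd209d, which is not shown, holds 1 match of each motif. A match of letters is no evidence of binding.

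The plasmacytoid dendritic cells were 6.41% (5.51 to 7.41) of kept cells at day 28 and 5.70% (4.85 to 6.65) at day 0, a ratio of 1.12 (0.898 to 1.41). The interval includes 1, so a difference in share was not detectable at this depth. They were sampled at nearly the same depth, with medians of 5165 and 4671 UMIs per cell, while all barcodes had medians of 12265 UMIs at day 28 and 4844 at day 0. The 2 libraries shared 13 barcode sequences, of which 0 belonged to plasmacytoid dendritic cells at day 28 and 1 at day 0.

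The 5 selecting genes, whose levels the rule fixes and which are given as a description only, sat almost wholly in these cells. Siglech stood at 1129 CPM (UMIs per 1000000 UMIs summed over the cells) at day 28, against 1396 CPM at day 0, and the chosen cells held 86.7% and 93.6% of all its UMIs in kept cells. Klk1 had 89.3% of its UMIs in these cells at day 28 and 92.4% at day 0. Ccr9 had 83.3% and 82.1%. Cox6a2 was found in 95.3% of the cells at day 28 and 96.1% at day 0, against 78.1% and 80.3% for Ccr9, 59.8% and 69.1% for Klk1 and 43.2% and 44.1% for Cd209d. In T cells, which should lack Siglech, 5.06% of cells at day 28 and 0.603% at day 0 had a Siglech UMI, at median depths of 4982 and 3687 UMIs. Klk1 reads can be shared with the near-identical Klk1b27, and Cd209d with other Cd209 genes.

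Cells at the edge of the rule carried the other genes of the type too. The 18 day 28 cells with exactly 3 Siglech UMIs had 4131 CPM of Ly6d and 1021 CPM of Tcf4, and the 11 such cells of day 0 had 3664 and 851 CPM. Just outside, the 8 cells of day 28 with 2 Siglech UMIs had 1123 CPM of Ly6d and 568 CPM of Tcf4, and the 14 of day 0 had 2823 and 605 CPM. A further 4 cells at day 28 and 3 at day 0 had 3 or more Siglech UMIs and none of the other 4 genes.

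The markers of the cell type that the rule did not use were high in the chosen cells. Bst2, an interferon-inducible tethering protein that marks these cells in unstimulated mice, had at least 1 UMI in all 169 and all 152 cells, at 3192 CPM at day 28, against 3793 CPM at day 0. Ly6d, a surface protein of lymphoid-primed precursors that plasmacytoid dendritic cells keep, stood at 2641 and 2927 CPM. Tcf4 was found in 98.8% of the cells at day 28 and 98.7% at day 0, against 6.33% and 2.90% of T cells. The fibroblast genes Col1a1 and Pdgfra had 0 UMIs in the cells with few granule UMIs, as had Itgam, which codes for the CD11b that the sort removed. Erythroid markers summed to 259 CPM against 4189 CPM in all other kept cells at day 28 and to 247 against 10518 CPM at day 0, though 25.4% and 13.8% of the plasmacytoid dendritic cells held 3 or more of their UMIs. Markers of some other types were above their level in all other cells. Conventional dendritic cell markers, of which these cells are known to share Flt3, summed to 297 against 39.3 CPM at day 28 and to 479.9 against 141 CPM at day 0. Cd209a was the 1 gene of that list abundant enough for a ratio, with log2 ratios of 3.80 at day 28 and 3.88 at day 0. In the day 28 cells with under 3 granule UMIs, Cd209a stood at 168 CPM and Flt3 at 69.5 CPM. Endothelial markers summed to 112 against 25.4 CPM at day 28 and to 140.3 against 44.6 CPM at day 0. T and NK markers summed to 218 against 65.1 CPM at day 28 and to 291 against 786 CPM at day 0. Plasma cell markers summed to 2272 against 2175 CPM at day 28 and to 83.5 against 1242 CPM at day 0. Late neutrophil markers were lower than in all other cells, at 1508 against 1988 CPM (day 28) and 151 against 2716 CPM (day 0). In the cells with under 3 granule UMIs the plasma cell and late neutrophil markers summed to 175 and 218 CPM at day 28. Jchain made up most of the plasma cell sum at day 28, and 1 cell held 1269 of its UMIs and another 848. S100a4, whose promoter drives the label, was low in the plasmacytoid dendritic cells, at 78.3 CPM at day 28, against 27.8 CPM at day 0, with 36 and 13 cells holding a UMI.

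**Figure D1:**
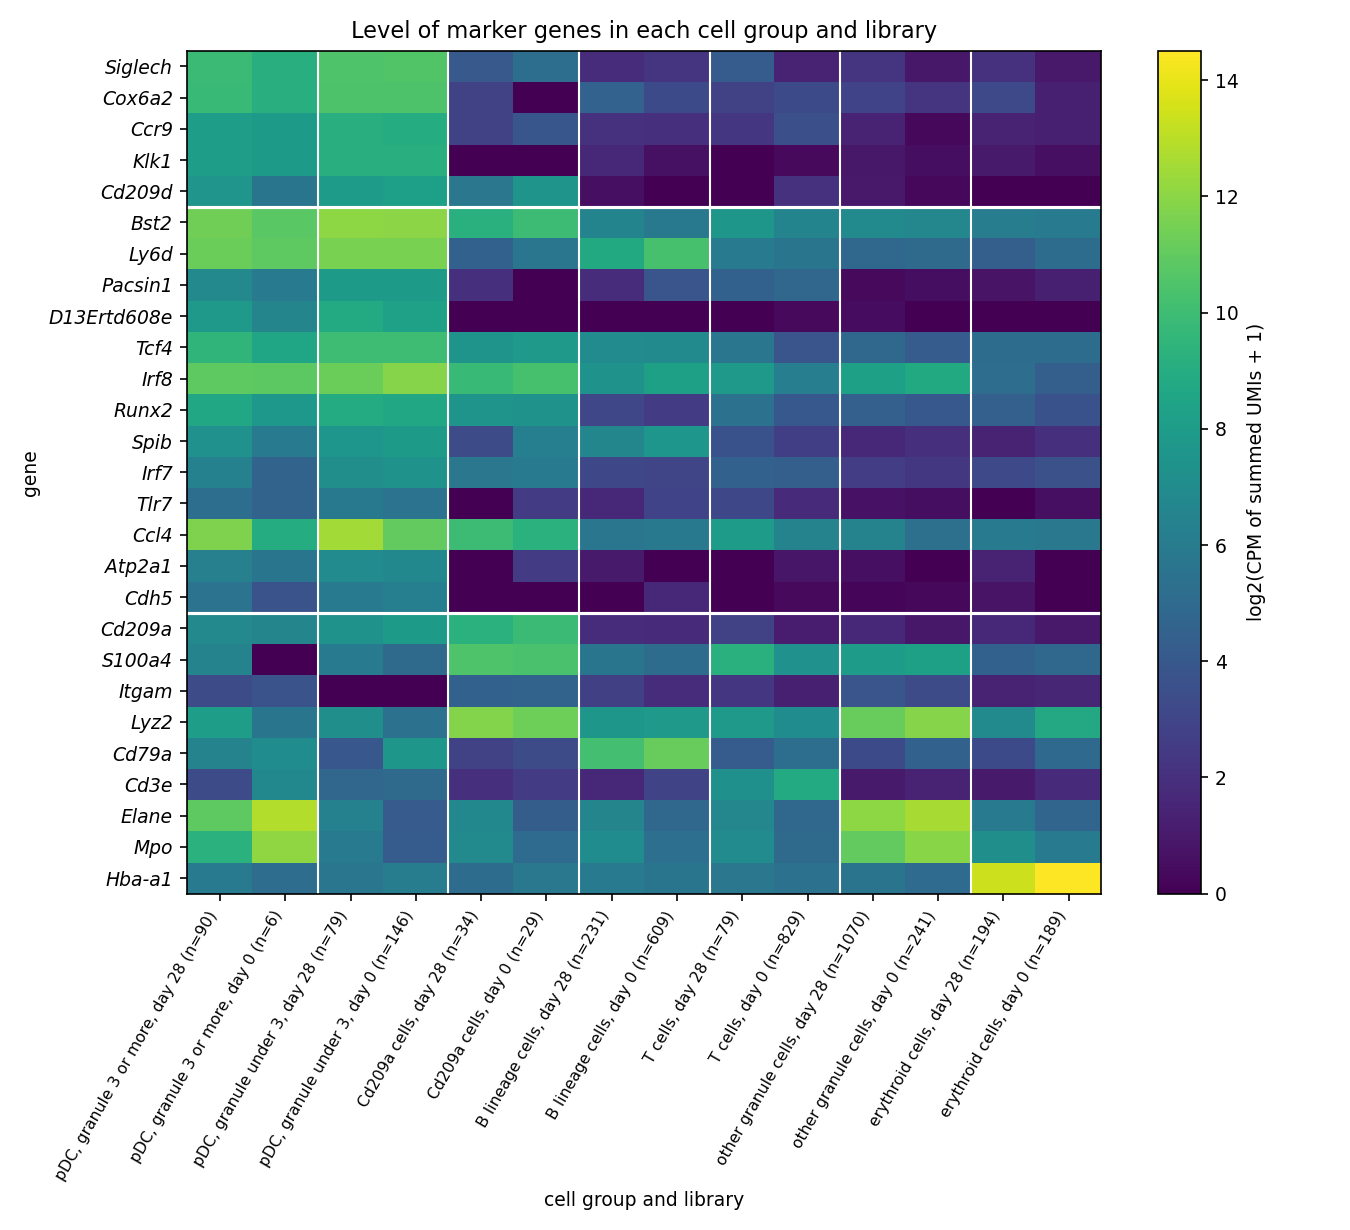
Level of 27 genes (rows) in each cell group and library (columns, with the number of cells), as the log2 of the CPM of the summed UMIs plus 1. The first 5 rows selected the cells, and Bst2, Ly6d, Tcf4 and Irf8 were high in the same 4 columns, with Bst2 at 4150.1 CPM at day 28, against 4010.4 CPM at day 0 in the cells with under 3 granule UMIs.

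The cells were next set against all other kept cells and against the Cd209a cells, kept cells outside the rule with at least 3 UMIs of the C-type lectin gene Cd209a, another dendritic cell marker (34 cells at day 28 and 29 at day 0, median depths 8850.5 and 6096 UMIs). A gene was called when its ratio was at least 2 or at most 0.5 in both libraries, at a mean of at least 50 CPM. Against all other cells, 212 of 2253 genes were higher (9.41%) and 80 were lower (3.55%). Since the same cells' RNA picked the members, these counts are a description. Of 28 plasmacytoid surface and secreted genes at that level, 24 were higher and 0 lower, with median log2 ratios of 3.37 at day 28 and 3.77 at day 0, against -0.01 and 0.04 for all genes. Ctsl, a lysosomal cysteine protease, stood at 569 CPM at day 28, against 1153 CPM at day 0, against 15.4 and 21.2 CPM in all other cells. Cd300c, a surface receptor of the immunoglobulin family, stood at 211 and 285 CPM, against 4.85 and 5.24 CPM in all other cells. MHC class II genes were higher for 6 of 8, and glycolysis genes lower for 5 of 9 (Tpi1, Pgam1, Mif, Pkm and Gapdh). Of 4 conventional and transitional dendritic cell genes, Clec10a, Cd209a and Sirpa were higher and Cd24a was lower. The plasmacytoid dendritic cells thus also carried Cd209a, the gene that defines the Cd209a cells, though it was lower than in those cells.

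Against the Cd209a cells, 147 of 2311 genes were higher (6.36%) and 169 were lower (7.31%). Higher were 18 of 27 surface and secreted genes and 5 of 13 transcription factors, Tcf4, Spib, Tcf12, Irf8 and Runx2. Tcf4 stood at 833 CPM in plasmacytoid dendritic cells and 182 CPM in Cd209a cells at day 28, a ratio of 4.59 (3.53 to 6.07), and at 964 and 233 CPM at day 0, a ratio of 4.13 (3.11 to 5.62). Spib, a factor of B cells and plasmacytoid dendritic cells, stood at 174 and 9.23 CPM at day 28 and at 225 and 74.6 CPM at day 0. Ly6d was among the widest apart, with 2641 and 21.5 CPM at day 28 and 2927 and 51.3 CPM at day 0. D13Ertd608e, a transcript of the fixed list, stood at 316 CPM against 0 UMIs in Cd209a cells at day 28 and 294 CPM against 0 UMIs at day 0, at least 34.2-fold and at least 21-fold higher with 3 UMIs as the floor of each group.

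Several of the genes lower in plasmacytoid dendritic cells are known from monocytes, macrophages and conventional dendritic cells. Spi1 (PU.1), the factor of the myeloid lineage, stood at 151 CPM against 551 CPM in Cd209a cells at day 28 and at 123 against 681 CPM at day 0. Ifitm3, an interferon-induced membrane protein, stood at 61.5 against 2106 CPM at day 28 and at 15.1 against 1619 CPM at day 0. Lgals3, the galectin of macrophages, stood at 157 against 2152 CPM and at 74.2 against 1987 CPM. Klf4, Ccr2, Csf2ra and the lysosomal thiol reductase Ifi30 were lower too, and so was S100a4 itself, at 78.3 against 1447 CPM at day 28 and 27.8 against 1273 CPM at day 0. The chemokine genes were divided between the 2 kinds of cell. Ccl4 was higher in plasmacytoid dendritic cells, at 4192 against 985 CPM at day 28 and 1914 against 625 CPM at day 0, while Ccl9 was lower, at 17.7 against 557 CPM and at 17.4 against 681 CPM. Of the G2 and M phase list 4 of 12 genes were lower, namely Birc5, Mki67, Ccnb1 and Hmgb2.

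Summed over cells, MHC class II genes compared differently in the 2 libraries, and a few Cd209a cells carried the sums. H2-Aa, a chain of the antigen-presenting molecule I-A, stood at 1333 CPM in plasmacytoid dendritic cells against 240.1 CPM in Cd209a cells at day 28, a ratio of 5.55 (4.42 to 7.06), and at 1925 against 2631 CPM at day 0, a ratio of 0.732 (0.665 to 0.807). Cd74, the invariant chain, stood at 3894 against 979 CPM at day 28 and at 7810.1 against 8597 CPM at day 0. The list median was 1.82 at day 28 and -0.46 at day 0. The 5 highest Cd209a cells held 74.4% of the H2-Aa UMIs of that group at day 28 and 84.9% at day 0, whereas the 5 highest plasmacytoid dendritic cells held 16.6% and 14.1%. By the median cell, plasmacytoid dendritic cells were above Cd209a cells in both libraries. Their median was 78.0 UMIs of the 15 listed MHC class II genes per 10000 UMIs against 27.9 in Cd209a cells at day 28, and 144 against 31.1 at day 0, with the highest Cd209a cell of day 0 at 917.

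Genes of muscle fibre were present in part. Atp2a1, the calcium pump of fast muscle, stood at 127 CPM at day 28, against 109 CPM at day 0 in the cells with under 3 granule UMIs, and 76.4% and 85.6% of its UMIs in all kept cells lay in the plasmacytoid dendritic cells. Cdh5, the cadherin of endothelial junctions, had 71.8% and 86.8% of its UMIs there. The abundant fibre genes Ckm and Myh4 had 0 UMIs in the cells with under 3 granule UMIs in both libraries, and Acta1 had 0 at day 28 and 2 at day 0.

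The cells were divided by their UMIs of the granule protein genes Mpo, Elane, Prtn3 and Ctsg, which neutrophil precursors make. Of the 169 plasmacytoid dendritic cells of day 28, 90 (53.3%, 45.4 to 61.0) had 3 or more such UMIs, against 6 of 152 at day 0 (3.95%, 1.46 to 8.39), a ratio of 13.5 (5.96 to 37.7). At day 28, 16 cells had 0, 26 had 1, 37 had 2, 57 had 3 or 4, 23 had 5 to 9 and 10 had 10 or more. Most of the cells past the line stood just above it. After each cell was thinned to 3000 UMIs, 20.7% (14.9 to 27.6) of the cells at day 28 and 0.658% (0.0167 to 3.61) at day 0 still had 3 or more.

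Other cell types of the same library carried a similar load of these 4 genes. Thinned alike, 12.7% of T cells, 18.2% of B lineage cells (3 or more Cd79a UMIs), 21.6% of erythroid cells and 29.4% of Cd209a cells had 3 or more granule UMIs at day 28, against 0.241%, 0.985%, 11.1% and 6.90% at day 0. Without thinning the shares of T cells were 49.4% at day 28 and 1.21% at day 0. The median plasmacytoid dendritic cell of day 28 had 4.44 granule UMIs per 10000 UMIs, beside 4.20 in T cells, 4.15 in B lineage cells, 4.06 in erythroid cells and 5.52 in Cd209a cells. T cells should lack these genes. The part that RNA from outside the cell has in the share of plasmacytoid dendritic cells was not tested. In the 80 cells with 3 to 9 granule UMIs the 4 genes stood at 26.7% Mpo, 25.1% Elane, 30.8% Prtn3 and 17.5% Ctsg, next to 30.2%, 25.5%, 30.7% and 13.7% in T cells, while in the granule cells themselves (1070 cells with 3 or more Elane UMIs at day 28) Mpo was 17.7% and Elane 35.7%.

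**Figure D2:**
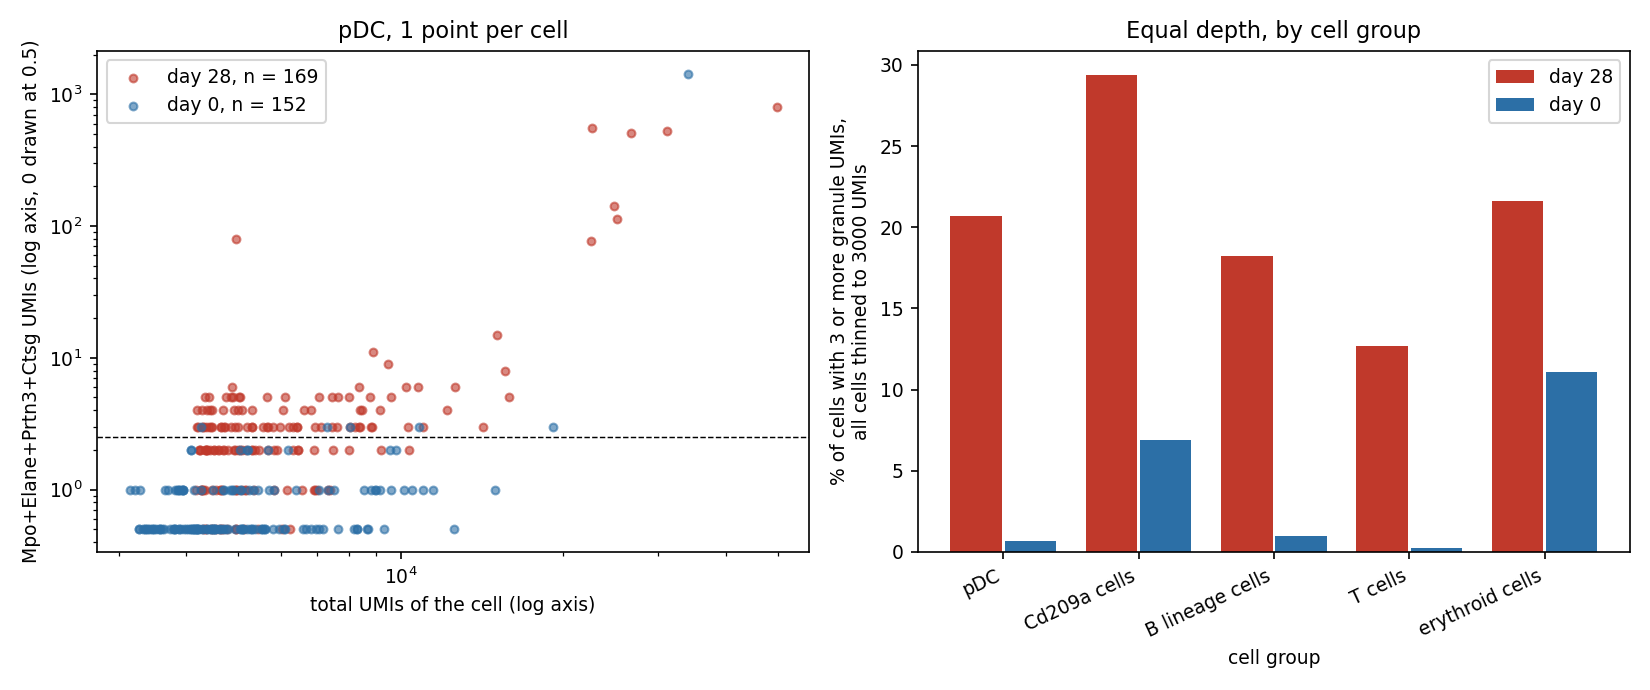
Left, UMIs of Mpo, Elane, Prtn3 and Ctsg against the total UMIs of each plasmacytoid dendritic cell (1 point per cell, both axes logarithmic, 0 drawn at 0.5, dashed line between 2 and 3). Right, percent of cells of each group with 3 or more such UMIs after all cells were thinned to 3000 UMIs: the bar of the plasmacytoid dendritic cells at day 28, 20.7%, stands between those of T cells, 12.7%, and Cd209a cells, 29.4%.

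A few cells stood apart. The 10 cells of day 28 with 10 or more granule UMIs held 2833 of the 3248 granule UMIs, had a median of 23729 UMIs, and 6 of them were among the 56 highest doublet scores of the library. They had 454 CPM of Siglech, 791 CPM of Ly6d and 4046 CPM of S100a8, a calcium-binding protein of neutrophils, whereas the 80 cells with 3 to 9 granule UMIs had 1169.7 CPM of Siglech, 3114 CPM of Ly6d and 87.3 CPM of S100a8. Ms4a3, a membrane protein of granulocyte precursors, stood at 484 CPM in the 10 cells and 27.9 CPM in the 80. At day 0, 1 cell of 33977 UMIs held 1438 of 1515 granule UMIs.

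Over both libraries, 46 of 2267 genes were higher (2.03%) and 7 were lower (0.309%) in cells with 3 or more granule UMIs than in those with fewer. The 46 include the 4 genes that made the division. Of the 5 genes that selected the cells, Klk1 and Ccr9 were among the lower. Neutrophil precursor genes outside the split were higher for 8 of 10 and G2 and M phase genes for 7 of 11, while plasmacytoid surface genes were lower for 2 of 33, Pacsin1 and D13Ertd608e. The filter fixed the direction of genes that reached the minimum mean only through the cells with 3 or more. The counts above include such genes, and their full number was not determined. Ms4a3 was such a gene, with 28.8 and 3.85 CPM in the cells with fewer (day 28, day 0). In those cells S100a8 and S100a9 passed the minimum at day 28 alone. Of the 7, Ccna2 and Nusap1 were under it there at day 28 (24.0 and 21.6 CPM). Ube2c, Tubb4b, Cks2, Birc5 and Hmgb2 were above it. Day 0 contributed 6 cells, 1 of which held 99.0% of their granule UMIs, and day 28 contributed the 10 cells described above. Without the cells of 10 or more granule UMIs, a setting added after the values were seen, 27 genes were higher and 1 was lower.

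The 80 cells with 3 to 9 granule UMIs were then set against the 79 with fewer within day 28, a comparison added after the values were seen, in which 71 of 2518 genes were higher (2.82%) and 13 were lower (0.516%). Without any minimum level, all 25 genes of the G2 and M phase list had the higher level in the cells with 3 to 9, and together they summed to 4658 against 1423 CPM, a ratio of 3.27 (2.99 to 3.59). At the minimum mean 13 of the 25 were measured and called higher, 5 of them through their level in the cells with 3 to 9 alone. The other 8 had at least 50 CPM in the cells with fewer as well. Cdk1 and Ccna2 were among the 5, so the filter fixed their direction. Cdk1, the kinase that starts mitosis, stood at 94.7 CPM against 14.4 CPM in the cells with fewer, a ratio of 6.59 (2.83 to 18.8). Ccna2, its cyclin A partner, stood at 132 against 24.0 CPM, and Top2a, which untangles replicated DNA, at 201 against 69.5 CPM. Hmgb2, a chromatin protein of dividing cells, stood at 1675 against 585 CPM. Of the S phase list 3 of 8 genes were higher, with Rrm2, a subunit of ribonucleotide reductase, at 149 against 45.5 CPM. Of these 8, 3 reached the minimum mean through the cells with 3 to 9 alone, Rrm2 among them. Among S phase genes with at least 50 CPM in the cells with fewer, 1 was higher. Without any minimum, 19 of 22 had the higher level, summing to 1522 against 949 CPM, a ratio of 1.60 (1.42 to 1.81).

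Only 5 of the 23 listed neutrophil precursor genes outside the split were measured in that comparison, too few to speak for the list. Of these 5, 0 were higher and 1, Nkg7, was lower, with a median of -0.18. Of all genes 2.82% were higher and 0.516% lower. Tcf4 stood at 887 against 1035 CPM, Irf8 at 2494 against 2461 CPM, and Bst2 at 3349 against 4150.1 CPM. Of 34 surface and secreted genes 2 were lower, Paqr5 and Cd4, and the list median was -0.39. Cd79a and Ebf1 of the B lineage were higher, at 106 against 14.4 CPM and 137 against 26.4 CPM. In the cells with 3 to 9, 1 cell held 24.6% of the Cd79a UMIs and 1 held 44.6% of the Ebf1 UMIs, and in the cells with fewer 1 held 54.5% of the Ebf1 UMIs. Jchain was higher too, with 1 cell holding 848 of its 939 UMIs.

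**Figure D3:**
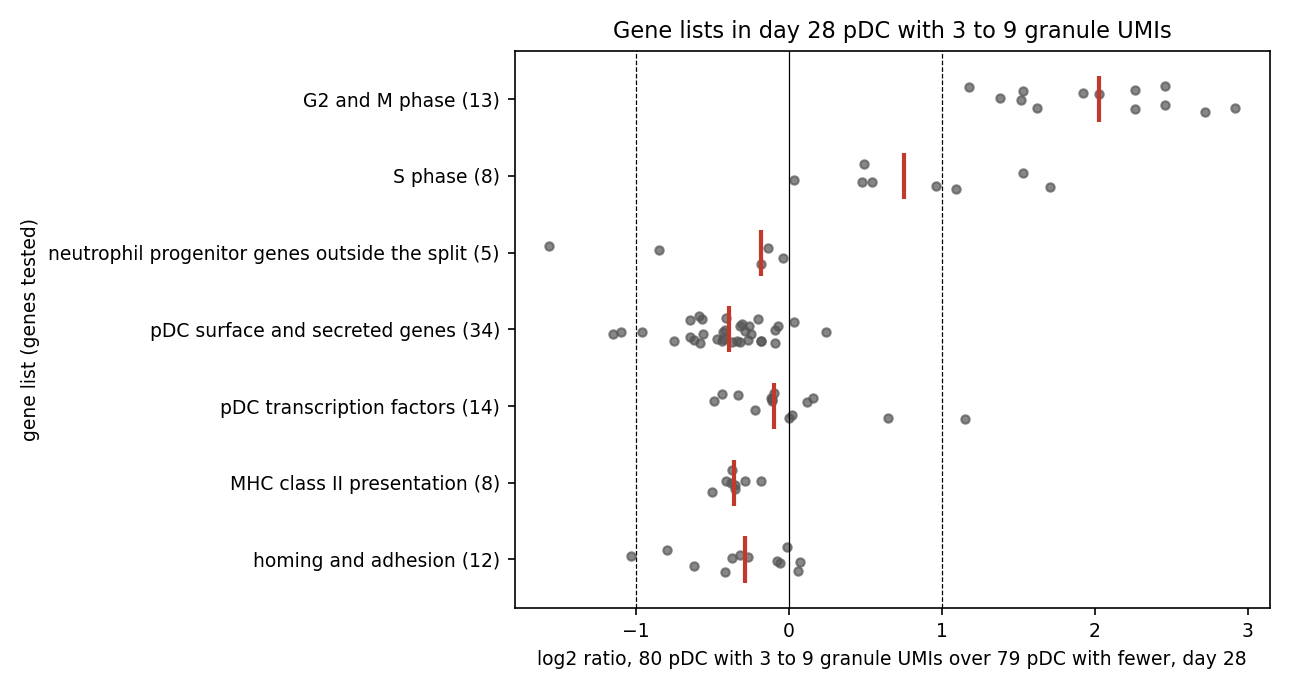
Log2 ratio of each measured gene of 7 lists (grey points, with the number of genes beside the list name) in the 80 day 28 cells with 3 to 9 granule UMIs over the 79 with fewer. Red lines are list medians and dashed lines mark 2-fold: the G2 and M phase list has its median at 2.03 and the others, but for the S phase list at 0.75, lie between -0.39 and -0.10.

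Depth moved with this division. The cells with 3 to 9 granule UMIs had a median of 5734 UMIs, and those with fewer 4923. After thinning, 58.9% (48.0 to 69.2) of the cells with 3 or more granule UMIs and 34.2% (23.9 to 45.7) of those with fewer had 3 or more UMIs of the G2 and M phase list at day 28. Turned round, among day 28 cells with under 10 granule UMIs, the 72 with 3 or more thinned G2 and M phase UMIs had a median of 6358 UMIs and 4.39 granule UMIs per 10000, and the 87 with fewer had 4773 UMIs and 4.29 granule UMIs per 10000. Per UMI the granule load was thus nearly equal in both. Thinned to equal depth, 16.7% of the 72 and 16.1% of the 87 had 3 or more granule UMIs, against 62.5% and 40.2% unthinned.

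The time points were compared in the cells with under 3 granule UMIs, 79 at day 28 and 146 at day 0. Of 2542 genes, 27 were at least 2-fold higher at day 28 (1.06%) and 59 at least 2-fold lower (2.32%), with a median log2 ratio of -0.05. Among the highest doublet scores were 0 of the 79 cells at day 28 and 15 of the 146 at day 0. Without the highest scores, 24 of the 27 higher and 41 of the 59 lower genes were still called, among 31 and 60. Tcf4 and Ly6d, which the rule did not use, were close in both libraries. Tcf4 stood at 1035 CPM at day 28, against 1027 CPM at day 0, a ratio of 1.01 (0.895 to 1.13), and Ly6d at 3057 and 3035 CPM. Siglech, of which the rule asks for UMIs in every cell, stood at 1449.6 and 1487 CPM. Among 34 surface and secreted genes 0 were higher and 1 was lower, and among 14 transcription factors 0 were called, with list medians of 0.01 and -0.14. Irf8 had the lower level at day 28, 2461 against 3688 CPM, without reaching 2-fold (ratio 0.667, 0.621 to 0.717).

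**Figure D4:**
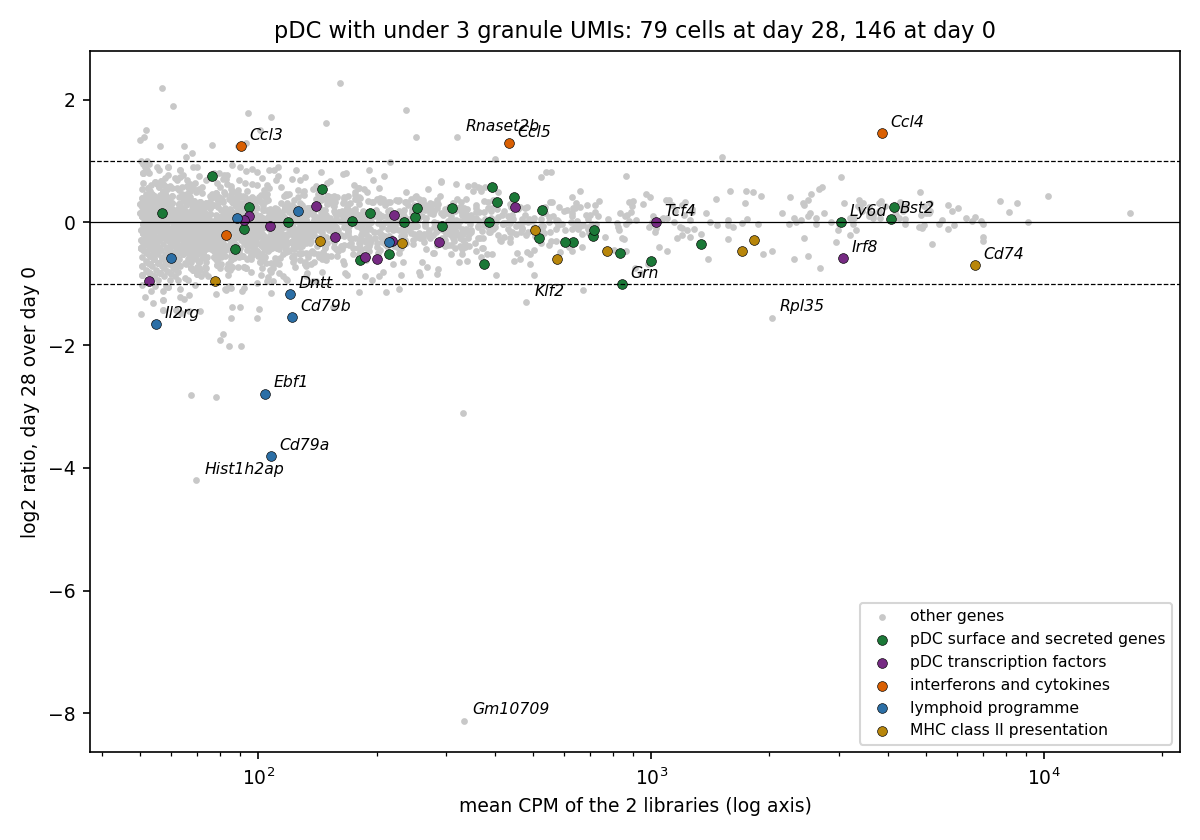
Log2 ratio of day 28 over day 0 against the mean CPM of the 2 libraries (log axis), for 2542 genes in plasmacytoid dendritic cells with under 3 granule UMIs. Coloured points are members of the named lists and dashed lines mark 2-fold: Ccl4 lies at 1.46 and Cd79a at -3.81, and most genes lie between the dashed lines.

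Ccl4 was the highest of the genes named by the ranking rule, which ranks genes at a mean of at least 100 CPM. It codes for a secreted chemokine (MIP-1 beta) that draws leukocytes, and lies at chr11:83662584-83664683 on the plus strand (mm10). It stood at 5691 CPM at day 28, against 2065 CPM at day 0, a ratio of 2.76 (2.59 to 2.94). Per cell the median was 19 UMIs at day 28 (quartiles 5.5 and 41, highest 141) and 6 UMIs at day 0 (quartiles 1 and 16, highest 60). The 2 distributions overlapped widely, and 62.0% of cells at day 28 and 37.0% at day 0 had 10 or more UMIs. In other cell types the log2 ratio was 1.53 in T cells, 1.13 in granule cells, 0.66 in Cd209a cells, 0.12 in erythroid cells and -0.19 in B lineage cells, beside 1.46 here. In T cells Ccl4 stood at 260.1 CPM at day 28, against 90.4 CPM at day 0, far under its level in plasmacytoid dendritic cells.

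**Figure D5:**
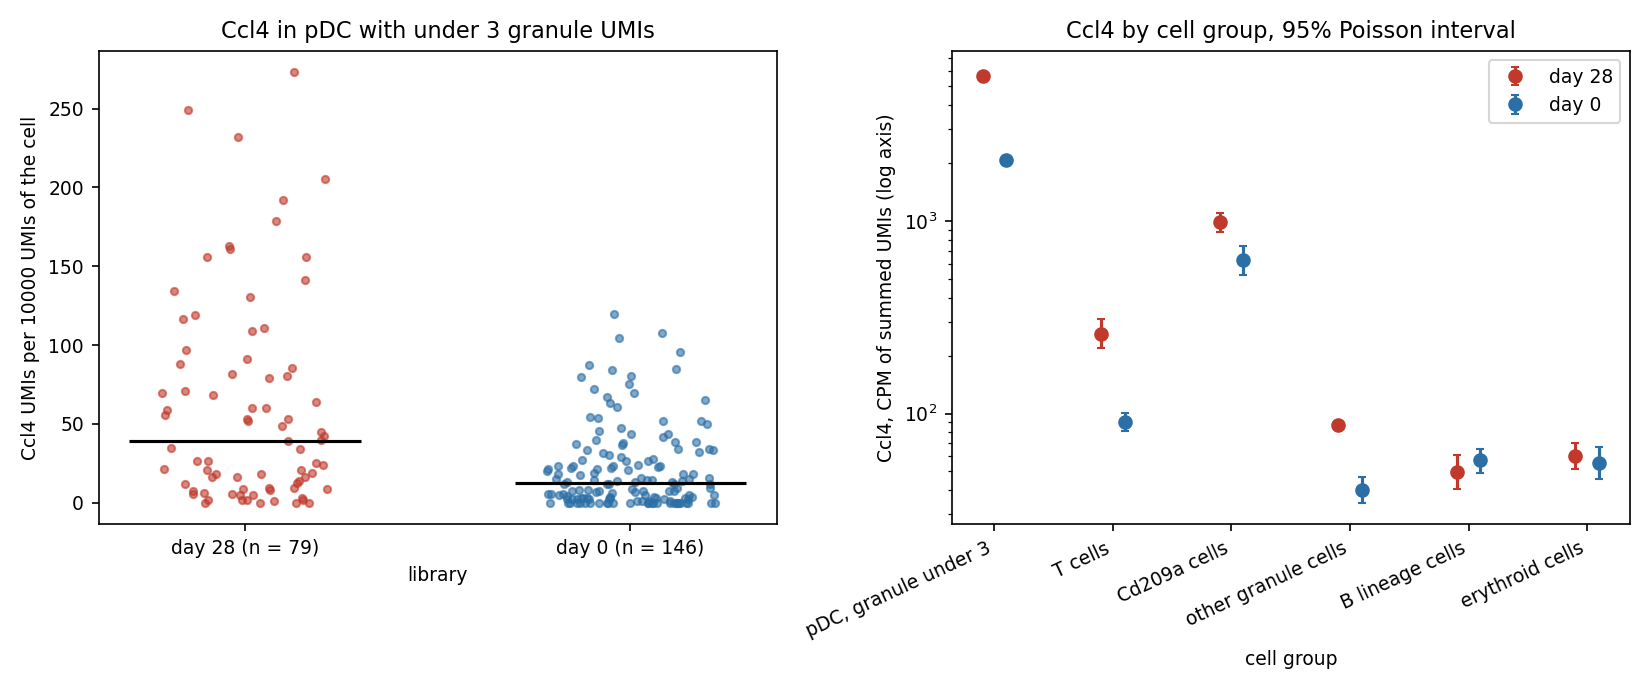
Left, Ccl4 UMIs per 10000 UMIs in each plasmacytoid dendritic cell with under 3 granule UMIs (1 point per cell, line at the median: 39.4 at day 28 and 12.5 at day 0). Right, Ccl4 CPM of the summed UMIs by cell group and library on a log axis, with exact 95% Poisson intervals: 5691 CPM at day 28, against 2065 CPM at day 0 in the plasmacytoid dendritic cells.

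The neighbouring chemokine gene Ccl3 stood at 127 CPM at day 28, against 53.9 CPM at day 0, a ratio of 2.36 (1.54 to 3.62), from 26 and 20 cells. Without cells of 3 or more G2 and M phase UMIs its log2 ratio was 0.07. Ccl5 stood at 618 and 250.2 CPM, a log2 ratio of 1.30, but 1 cell held 52.7% of its UMIs at day 28 and 1 held 36.9% at day 0. Its direction turned with the choice of cells. The log2 ratio was -0.31 without cells holding UMIs of other lineages, T and NK cells among them, -0.73 in all plasmacytoid dendritic cells, and -2.79, -0.92 and -1.17 with the division at 1, 5 and 10 granule UMIs. The T and NK markers, whose cells make Ccl5, summed to 237 CPM at day 28, against 250.2 CPM at day 0, with 3 or more UMIs in 9 of 79 and 16 of 146 cells. These 3 were the called genes among 4 measured of the interferon and cytokine list. Type I interferon itself was not detected: Ifna1, Ifna2, Ifna4 and Ifnb1 had 0 UMIs in both libraries. Of the 31 listed genes, 23 had 0 UMIs at day 28 and 22 at day 0.

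In the cells with under 3 granule UMIs, the nucleic acid sensors and the interferon-stimulated genes gave no called gene. Of all 2542 genes 1.06% were higher and 2.32% lower, so 0 calls among so few genes tells little about these lists. Of 10 nucleic acid sensing genes 0 were called, with a median of -0.05. Tlr7, the endosomal receptor for single-stranded RNA, stood at 57.5 CPM at day 28, against 44.9 CPM at day 0, and Tlr9, the receptor for CpG DNA, had 0 UMIs and 1 UMI. Unc93b1, which carries these receptors to the endosome, stood at 529.5 and 730.2 CPM. Of 6 interferon-stimulated genes 0 were called, with values on both sides of equality: Ly6e had 1845 CPM at day 28, against 2785 CPM at day 0, and Trim30a had 151 and 110.4 CPM. Irf7, the master regulator of interferon transcription, stood at 144 and 169 CPM, a ratio of 0.849 (0.615 to 1.16). Over all plasmacytoid dendritic cells 1 of 7 interferon-stimulated genes, Ifitm2, was higher and 0 were lower, beside 40 higher and 49 lower of 2568 genes.

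In the cells with under 3 granule UMIs, the antigen presentation, secretion and lysosome lists gave 0 called genes in either direction. Of all genes 1.06% were higher and 2.32% lower, so few calls were to be found in lists of this size. The 9 MHC class II genes had a median of -0.46, with Cd74 at 5104 CPM at day 28, against 8239 CPM at day 0. The 27 genes of protein folding and secretion had a median of 0.01, and the 16 lysosome genes and 16 MHC class I genes -0.16 each. Grn, the progranulin growth factor, was the lower surface and secreted gene, at 558 CPM at day 28, against 1127 CPM at day 0 (ratio 0.495, 0.427 to 0.573), and was found in 72 of 79 and 144 of 146 cells. Across the settings tried its log2 ratio lay between -1.35 and -0.79, so that the 2-fold line was not always passed. Over all plasmacytoid dendritic cells 49 of 2568 genes were at least 2-fold lower at day 28. Among them were H2-DMb2 and Cd74 of 9 MHC class II genes, H2-Q6 of 17 MHC class I genes and Ctsl of 16 lysosome genes. Those lists and the secretion list had 0 genes higher.

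Genes of the lymphoid programme were lower at day 28 for 5 of 9 measured, with a median of -1.17 and 0 higher. Of these, Cd79a, Ebf1 and Il2rg reached the minimum mean through their day 0 level alone, so the filter fixed their direction. The whole list, without a minimum, summed to 776 CPM at day 28, against 1479.7 CPM at day 0. Cd79a, a signalling chain of the B cell receptor, stood at 14.4 CPM at day 28, against 201 CPM at day 0, and Ebf1, a B lineage factor, at 26.4 and 182 CPM. A minority of cells carried these UMIs: 2 of 79 cells at day 28 and 19 of 146 at day 0 had 3 or more UMIs of the B lineage markers, and those 19 held 88.5% of the Cd79a UMIs and 95.8% of the Ebf1 UMIs of day 0. They had a median of 7059 UMIs, against 4433 in the other day 0 cells. Without them, a setting chosen after seeing the data, Cd79a stood at 9.88 CPM at day 28, against 28.8 CPM at day 0, and Ebf1 at 4.94 and 9.59 CPM. Cd79b, the partner chain of Cd79a, stood at 62.3 CPM at day 28, against 181 CPM at day 0 over all the cells and at 54.4 and 68.7 CPM without them. Il2rg, the common cytokine receptor chain, stood at 26.4 and 83.4 CPM over all and at 24.7 and 60.7 CPM without them. Whether the cells with B lineage UMIs are single cells was not tested.

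Dntt, which adds bases at the joints of rearranged receptor genes, was spread over more cells. It stood at 74.3 CPM at day 28, against 167 CPM at day 0, a ratio of 0.445 (0.291 to 0.663), with UMIs in 20 of 79 and 74 of 146 cells. The 19 cells with B lineage UMIs held 16.2% of its UMIs, and without such cells it stood at 76.6 and 174 CPM. Across the settings tried its log2 ratio lay between -1.24 and -0.37. Among other cells Dntt was past 2-fold lower in erythroid cells, with 29.3 CPM at day 28, against 86.2 CPM at day 0, and in T cells, with 3.94 and 9.98 CPM. In B lineage cells it was past 2-fold higher, with 249 CPM at day 28, against 114 CPM at day 0.

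Of the homing genes, Klf2, a factor that controls exit from tissue and lymphoid organs, was lower at day 28, at 278 against 684 CPM (ratio 0.406, 0.330 to 0.498), and it was past 2-fold lower in 4 of the 5 other cell groups too. Itga4, the alpha 4 integrin, was higher, at 88.7 against 42.3 CPM, but its log2 ratio was -0.08 among the cells with under 3 G2 and M phase UMIs. It also reached the minimum mean through its day 28 level alone, so the filter fixed its direction. Other genes lower at day 28 were Serinc3, a membrane protein that restricts viruses, at 427 against 916 CPM, and Vcp, a protein-extracting ATPase, at 86.3 against 223 CPM. Without cells of 3 or more G2 and M phase UMIs the log2 ratio of Serinc3 was -0.70, short of 2-fold. Both were lower at day 28 in all 5 other cell groups too, short of 2-fold. Serinc3 had log2 ratios from -0.99 in erythroid cells to -0.20 in T cells, beside -1.10 here, and Vcp from -0.64 in granule cells to -0.22 in T cells, beside -1.37 here.

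Late neutrophil markers were higher at day 28 in these cells for both of the 2 measured, S100a8 and S100a9, which reached the minimum mean through their day 28 level alone. The late neutrophil markers summed to 218 CPM at day 28, against 62.9 CPM at day 0. S100a8 stood at 95.8 CPM at day 28, against 25.7 CPM at day 0, S100a9 at 93.4 and 20.5 CPM, and Lyz2, the lysozyme of myeloid cells and the 1 measured gene of 10 macrophage and monocyte markers, at 146 and 42.3 CPM. Of 11 measured genes of the monocyte and dendritic cell progenitor list 1, again Lyz2, was higher and 0 were lower, with a median of -0.08. Lyz2 too reached the minimum mean through its day 28 level alone, so the filter fixed its direction in both lists. Lyz2 was more abundant in other cells, with 2268 CPM at day 28, against 3767 CPM at day 0, in granule cells, and 3660.1 and 2505 CPM in Cd209a cells. In T cells, which should lack it, Lyz2 stood at 221 CPM at day 28, against 131 CPM at day 0, in B lineage cells at 203 and 233 CPM, and in erythroid cells at 123 and 436 CPM. The part that RNA from outside the cell has in these levels was not tested.

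Some calls were shared by the whole library. Of the 27 higher genes 6 were past 2-fold in all 5 other cell groups, namely Gm26917, Gm42418, Jchain, Rnaset2a, Rnaset2b and Rpl29, and so were 9 of the 59 lower ones, among them Eno1, Rpl35 and Hist1h2ap. Rnaset2a and Rnaset2b share reads as near-identical copies. Past 2-fold in none of the other groups were 10 of the 27, Ccl3 and Lyz2 among them, and 24 of the 59. The filter fixed the direction of some of these called genes, Lyz2, Eno1 and Hist1h2ap among them. In the cells with under 3 granule UMIs, the G2 and M phase list gave 0 higher and 1 lower of 8 genes between the time points. Without thinning, 70.9% (59.6 to 80.6) of the cells at day 28 and 39.0% (31.1 to 47.5) at day 0 had 3 or more UMIs of that list, with intervals that do not overlap, at median depths of 4923 and 4608 UMIs. After thinning the shares were 34.2% (23.9 to 45.7) and 26.7% (19.7 to 34.7), with intervals that overlap. The summed level of the list in these cells was 1423 CPM at day 28, against 1648 CPM at day 0, the other way round. The division left out 90 of 169 cells at day 28 and 6 of 152 at day 0. Over all plasmacytoid dendritic cells the list summed to 3324 CPM at day 28, against 1886 CPM at day 0. Its direction thus depended on the cells taken, and no order is read from the shares.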

How the data were processed

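The authors deposited UMI counts for each gene in each barcode, without normalisation. The matrix headers declare integers, and every value read was whole. Per the submitters' processing notes, Cell Ranger 2.1.1 and STAR (version not stated) were used with build mm10. The labels name 3' v1 chemistry, while barcodes have 16 bases. No day 28 barcode had under 4175 UMIs and no day 0 barcode under 3001.

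Requiring 500 detected genes and allowing up to 10% of UMIs from mitochondrial genes removed 17 at day 28 and 2 at day 0. UMIs were summed per library and cell group and given as CPM. Genes at a mean of at least 50 CPM were compared, called at 2-fold, with 0 UMIs set at 3. Intervals were exact Clopper-Pearson, Poisson and conditional binomial ones (scipy 1.17.1) at 95%. Cells of 1 library are not replicates, so no test was made. Doublets were scored with Scrublet (scanpy 1.11.5) and not removed; the automatic threshold marked 0.829% of barcodes at day 28 and 0.150% at day 0, under the working minimum of 0.5% at day 0, so the 56 and 57 top scores, 0.8% per 1000 barcodes, were marked instead. Of these, 9 and 16 were plasmacytoid dendritic cells. Of 27998 identifiers, 27645 were matched to GENCODE M21 for coordinates. Cells passing several gates of the comparison groups were left out of all of them.

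The members and the 37 gene lists were chosen with earlier results of these data known. Genes named are list members past 2-fold, at most 4 a side, and the 15 highest and lowest ratios at a mean of at least 100 CPM with at most 25% of UMIs in 1 cell, without mitochondrial, ribosomal, haemoglobin, sex-linked and unnamed genes. Alternatives changed the rule, depth, scaling, filters and split. The code was tested on simulated counts.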

Additional observations from a re-analysis of the deposited data

Results flagged for a closer look

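Some genes lay on opposite sides of equality in the 2 libraries, with counting intervals that exclude 1 on both sides and at least 1 ratio past 2-fold. The difference between libraries was not tested. In plasmacytoid dendritic cells over Cd209a cells, the MHC class II genes H2-Aa, H2-Ab1 and H2-Eb1 and the invariant chain Cd74 had log2 ratios of 2.47, 2.08, 2.79 and 1.99 at day 28, and of -0.45, -0.29, -0.77 and -0.14 at day 0. Few Cd209a cells carry these sums: at day 0 the 5 highest held 73.9% of the group's MHC class II UMIs, and at day 28 40.6%. The median cell did not turn round, at 78.0 UMIs of the list per 10000 UMIs in plasmacytoid dendritic cells against 27.9 in Cd209a cells at day 28, and 144 against 31.1 at day 0. H2-Eb1 stood at 574 CPM in plasmacytoid dendritic cells against 83.1 CPM in Cd209a cells at day 28, and at 847 against 1446 CPM at day 0. Rbm38, an RNA-binding protein, had -0.65 at day 28 and 1.08 at day 0 in the same comparison.

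In cells with 3 or more granule UMIs over those with fewer, Ebf1 had a log2 ratio of 1.96 at day 28 and -2.34 at day 0. At day 28, 1 cell held 41.8% of the Ebf1 UMIs of the cells with 3 or more granule UMIs and 1 held 54.5% of those of the cells with fewer. Jun, an immediate early factor, had 0.76 at day 28 and -1.59 at day 0. The day 0 values rest on 6 cells with 3 or more granule UMIs, and their cause was not tested.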

How the results depend on the processing

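No paired analysis was possible because each time point is 1 library with no replicate number. The ratio of the shares of plasmacytoid dendritic cells, 1.12, lay between 0.923 and 1.19 in the settings tried. The ratio of the shares with 3 or more granule UMIs, 13.5, was 2.33 (1.72 to 3.21) with the division at 1 UMI. Leaving out a replicate was not possible.

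The counts of called genes moved with the filter. With the minimum mean at 20 CPM, 100 CPM and none, day 28 over day 0 gave 113, 11 and 682 genes higher and 274, 16 and 1242 lower, against 27 and 59. Over Cd209a cells there were 316, 80 and 557 higher and 307, 91 and 703 lower, against 147 and 169. For 3 or more granule UMIs over fewer there were 116, 20 and 420 higher, against 46, and 20 lower at 20 CPM and 31 with none, against 7.

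Day 28 over day 0 also gave 52 higher and 98 lower in thinned cells, 151 and 162 with the division at 1 granule UMI, 87 and 143 without cells of 3 or more G2 and M phase UMIs, and 45 higher without cells holding UMIs of other lineages. The granule comparison gave 73 higher without other lineages, 22 and 99 with the division at 1 and 10 UMIs, and 27 without cells of 10 or more. Its lower genes numbered 20 at 5 or more Siglech UMIs, 4 at 2 UMIs of the other 4 genes, 4 in cells at or above the higher of the lowest totals, 2 with per-cell mean CPM, 3 thinned, 1, 36 and 161 with the division at 1, 5 and 10 UMIs, and 1 without cells of 10 or more.

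For 176 gene ratios in the 17 settings that can alter a ratio, 12 of 2154 values changed sign among genes past 2-fold at the main setting. Of the others, judged by size alone, 1871 kept to the same side of 2-fold and 271 crossed it. Changes of sign in genes short of 2-fold were not counted apart. In comparisons within libraries, a gene whose direction differed between the 2 libraries counted as short of 2-fold. In day 28 over day 0 the log2 ratio of Ccl5 became -0.31 without other lineages, -2.79, -0.92 and -1.17 with the division at 1, 5 and 10 granule UMIs, and -0.73 in all cells. Vpreb3 became 0.20 without other lineages and 0.63 without B lineage UMIs, Nkg7 -0.97 with the division at 1 UMI, and Itga4 -0.08 without G2 and M phase cells. Over Cd209a cells Ctsg became -0.17 and Ms4a3 -1.07 without other lineages. S100a9 became -0.02 in the granule comparison without cells of 10 or more. The causes were not tested. Ccl4 stayed between 1.13 and 1.66, Klf2 between -1.48 and -1.02, and Grn between -1.35 and -0.79.

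Counts per cell of about 5000 UMIs leave most genes under 1 UMI, and a gene at 0 UMIs in the 79 cells of day 28 or the 146 of day 0 is only not detected at this depth.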
